A study of Mus musculus with 3 samples.

Results

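The microRNA gene rows of the deposited expression table were examined, chosen as every row whose symbol begins with Mir or Mirlet followed by a digit. The pattern matched 1 of the 28074 gene symbols analysed, Mir22hg. Its name and its annotation mark it as the long host transcript of miR-22, so it is not a microRNA precursor row, and 0 rows of precursors were found by the rule. No row for a member of the miR-196 family was among the symbols analysed here, so the labelled deletion of miR-196b was not checked from a row of its own.

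The samples were 3 acute myeloid leukemias, taken from the spleens of separate moribund mice with the labelled genotype miR196b-/-Dnmt3afl/fl,Flt3ITD/ITD,Mx1Cre. The titles give Dnmt3a+/- in place of the floxed alleles. By these labels all 3 mice lacked miR-196b, carried an internal tandem duplication in the receptor Flt3 and carried Cre under the interferon-responsive Mx1 promoter, which is active in blood cells and in other tissues. No age or sex is given, and cells bearing the receptor c-Kit were enriched with magnetic beads before RNA was extracted. The study compared these leukemias with Dnmt3a+/-Flt3ITD leukemias from another series, whose values were not used here, so there was 1 group, no contrast between genotypes and no test. The mice are called 1, 2 and 3 in the order of their records, and the spread between them serves as the error of each value.

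A microRNA is cut out of a long primary transcript in the nucleus, where the Drosha and Dgcr8 proteins free a hairpin that Xpo5 exports and Dicer1 trims. The mature strand is then loaded into an Argonaute protein and pairs with target RNAs through its seed, bases 2 to 8 counted from the 5′ end. Libraries of long RNA fragments do not measure mature microRNAs, which are too short to be kept, and the level of a primary or host transcript is not the level of the microRNA made from it. miR-22 is a conserved microRNA that has been reported to repress Tet2, an enzyme of DNA demethylation, in blood stem cells. miR-196b is encoded among the Hoxa genes and has been studied in leukemias with high Hoxa9.

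The sequences that tie the Mir22hg row to miR-22 are shown first. In the GENCODE M21 annotation, on the mm10 build that the submitters' processing notes name, Mir22hg spans chr11:75461539-75466676 on the plus strand. It has 2 annotated noncoding transcripts, Mir22hg-201 (449 nt, 2 exons) and Mir22hg-202 (1752 nt, 3 exons). The Mir22 hairpin, 95 nt at chr11:75463716-75463810, lies inside exon 2 of both, at bases 241 to 335 of Mir22hg-202. Exon 2 of Mir22hg-202 covers chr11:75463693-75463857 (165 nt) and is printed from the GENCODE transcript with the hairpin in capitals. The RefSeq hairpin (build GRCm38.p6) follows with its mature arms in capitals.
Mir22hg-202 exon 2: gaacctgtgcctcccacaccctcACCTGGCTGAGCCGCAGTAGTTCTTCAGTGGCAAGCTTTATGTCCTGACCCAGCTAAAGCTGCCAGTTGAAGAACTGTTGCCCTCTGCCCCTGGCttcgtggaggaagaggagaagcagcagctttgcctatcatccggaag
Mir22 hairpin: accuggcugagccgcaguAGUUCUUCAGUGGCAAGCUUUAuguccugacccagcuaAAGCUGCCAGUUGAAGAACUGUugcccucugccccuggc

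The mature strands of miR-22 are set beside those of miR-196b, the deleted microRNA, and of miR-223, a microRNA of granulocytes whose host transcript is described further on. Capitals mark the seed.
miR-22-3p: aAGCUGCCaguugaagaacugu
miR-22-5p: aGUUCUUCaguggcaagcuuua
miR-196b-5p: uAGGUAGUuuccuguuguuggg
miR-223-3p: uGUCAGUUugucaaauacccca
These 4 strands have 4 different seeds. In the RefSeq table, 0 other mature mouse microRNAs carried the seed of miR-22-3p, of miR-22-5p or of miR-223-3p, while 1 other carried that of miR-196b-5p, namely miR-196a-5p. miR-22-3p lies at chr11:75463772-75463793 on the plus strand, and miR-196b-5p at chr6:52230129-52230150 on the minus strand.

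**Figure D1:**
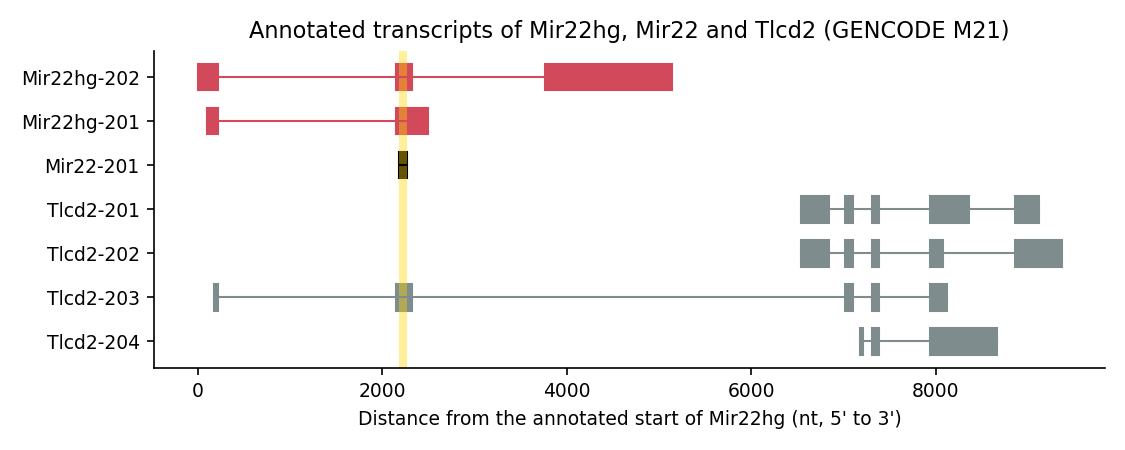
Annotated transcripts of Mir22hg (red), the Mir22 hairpin (black) and Tlcd2 (grey) by distance in nt from the start of Mir22hg; boxes are exons, lines are introns and the yellow band marks the hairpin. The hairpin falls in exon 2 of both Mir22hg transcripts and also in exon 2 of Tlcd2-203.

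The same stretch belongs to a second annotated gene. Tlcd2, a protein-coding gene for a membrane protein, spans chr11:75461715-75470899 on the same strand, and its noncoding transcript Tlcd2-203 (564 nt) contains the identical 165-nt exon with the hairpin. The protein-coding Tlcd2 transcripts begin downstream of Mir22hg. Of the stretches of 31 bases in Mir22hg-202, 176 of 1716 (10.3%) also occur in Tlcd2, and of those in Mir22hg-201, 177 of 419 (42.2%). The only other gene to share any of them was Mir22, with 65 in each. Fragments that lie wholly within the shared exons cannot be assigned to Mir22hg or Tlcd2 by their sequence, so the values of both genes are uncertain to that extent. The overlap is that of GENCODE M21, which may differ from the annotation behind the deposited values.

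Mir22hg was above 0 in all 3 mice, at 23.5 TPM in mouse 1, 28.6 TPM in mouse 2 and 15.2 TPM in mouse 3. TPM, the unit in which the deposited values were read here, is a relative abundance corrected for transcript length. Mouse 2 was the highest and mouse 3 the lowest. The mean was 22.4 ± 6.77 TPM (SD, n = 3), above the threshold of 1 TPM used here for an expressed gene, which 15181 of 28074 symbols (54.1%) reached. Mir22hg stood at percentile 56.3 of those expressed symbols, whose median was 17.5 TPM, and at percentile 76.4 of all symbols. By mouse, its rank among all symbols was 6586, 5576 and 7948 in mice 1, 2 and 3. It carried 0.00253%, 0.00309% and 0.00164% of the column sums, a mean of 0.00242 ± 0.000731% (SD, n = 3).

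The host transcript of miR-22 varied between the 3 leukemias more than most genes of its level did. Mouse 2 was 1.88 times as high as mouse 3, mouse 1 was 1.55 times as high as mouse 3, and mouse 2 was 1.22 times as high as mouse 1. On the log2(TPM + 1) scale the SD between mice was 0.45, against a median of 0.21 over all expressed symbols. That SD was at percentile 87.5 of expressed symbols, and 1904 of them had one at least as large. Among the 5332 symbols with a mean within 2-fold of that of Mir22hg, the median SD was 0.19 and Mir22hg stood at percentile 91.0. The spread rested mostly on mouse 3: without it the SD fell to 0.19. With 1 sample per animal and no contrast between groups, these percentiles describe the 3 libraries and are not a test.

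**Figure D2:**
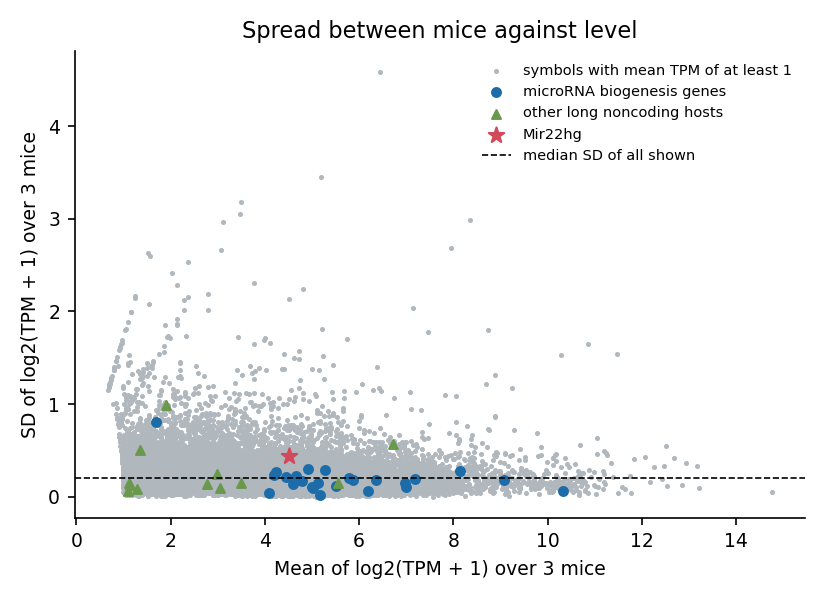
SD against mean of log2(TPM + 1) over 3 mice for the 15181 symbols with a mean of at least 1 TPM; Mir22hg is the red star, other long noncoding genes that contain a microRNA are green triangles, microRNA biogenesis genes are blue circles, and the dashed line is the median SD. Mir22hg, at an SD of 0.45, lies above the median of 0.21 and inside the cloud of other genes.

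The order of the mice, with mouse 2 above mouse 1 above mouse 3, was shared by 16.7% of expressed symbols. Scaling the libraries to a common upper quartile left that order for Mir22hg, at 22.2, 29.0 and 16.0 TPM, and 13.9% of expressed symbols then had it. The difference between mice 2 and 3 was 0.87 on the log2(TPM + 1) scale as deposited and 0.82 after scaling.

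Marker genes of several cell types differed in level between these libraries. The summed level of 3 neutrophil markers (S100a8, S100a9 and Ltf) was 1699, 4442 and 15284 TPM in mice 1, 2 and 3, so it was highest in the mouse with the lowest Mir22hg. The sum of 3 erythroid markers was 16.9, 13.3 and 48.6 TPM, and the dendritic cell marker Clec9a was at 184, 415 and 273 TPM. B and T cell markers were low, with highest sums of 5.21 TPM for 3 B cell markers and of under 2 TPM for a pair of T cell markers, both in mouse 3. Mast cell marker Cpa3 was highest in mouse 1, at 51.9, 14.6 and 13.2 TPM. Fcer1a, preset with Cpa3 as a mast cell marker, was near the floor, at 0.079, 0 and 0.073 TPM. The macrophage markers Emr1, at 12.7, 21.5 and 21.6 TPM, and Vcam1, at 2.35, 4.49 and 5.94 TPM, were lowest in mouse 1. The platelet gene Pf4 was highest in mouse 3, at 6.73, 20.4 and 51.0 TPM. Itga2b, preset with Pf4 as a megakaryocyte marker, went the other way and was highest in mouse 1, at 49.0, 15.5 and 18.2 TPM. Of 5 markers of the leukemic cells, Kit, the receptor used for enrichment, stood at 139, 149 and 133 TPM and Flt3 at 146, 157 and 106 TPM, both in the order of mice of Mir22hg as deposited, which Flt3 kept after scaling and Kit did not. Cd34 stood at 202, 141 and 137 TPM. The granule enzyme genes Mpo, at 1081, 864 and 1632 TPM, and Elane, at 410, 271 and 736 TPM, were highest in mouse 3. Of the 23 markers measured, 0 were listed at 0 in every mouse. In bulk RNA, fewer cells of a type and less RNA per cell cannot be told apart, and the part of these cells in the spread of Mir22hg was not tested.

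The genes around Mir22hg were compared with it, since the annotation makes Tlcd2 overlap it. Tlcd2 stood at 46.9, 53.2 and 41.0 TPM in mice 1, 2 and 3, with a mean of 47.1 ± 6.14 TPM (SD, n = 3). It had the same order of mice as Mir22hg before and after scaling, and a smaller SD of 0.19 on the log2(TPM + 1) scale. The ratio of Mir22hg to Tlcd2, both per length, was 0.501, 0.537 and 0.371, so it was also lowest in mouse 3. Wdr81, a gene of endosomal trafficking that is the next annotated gene upstream with a row here and lies on the opposite strand, stood at 29.0, 27.8 and 25.8 TPM. Its SD of 0.08 was the smallest among the expressed neighbours.

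Within 100 kb of Mir22hg, 10 other genes had a row and 8 of them had a mean of at least 1 TPM. Their SDs ran from 0.08 to 0.30 log2 units, all below the 0.45 of Mir22hg. Mouse 3 was the lowest for 7 of the 8 as deposited and for 4 of the 8 after scaling, against 42.6% and 29.8% of all expressed symbols. The full order of mice of Mir22hg was found in 4 of the 8 as deposited and in 3 of the 8 after scaling, against 16.7% and 13.9% of expressed symbols. Both counts include Tlcd2, which shares exon sequence with Mir22hg and so is not independent of it. Prpf8, a core protein of the spliceosome and the most abundant of them, was the exception in mouse 3, at 160, 137 and 138 TPM. Serpinf1, which encodes a secreted serpin, was highest in mouse 2, at 60.3, 85.4 and 58.2 TPM.

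**Figure D3:**
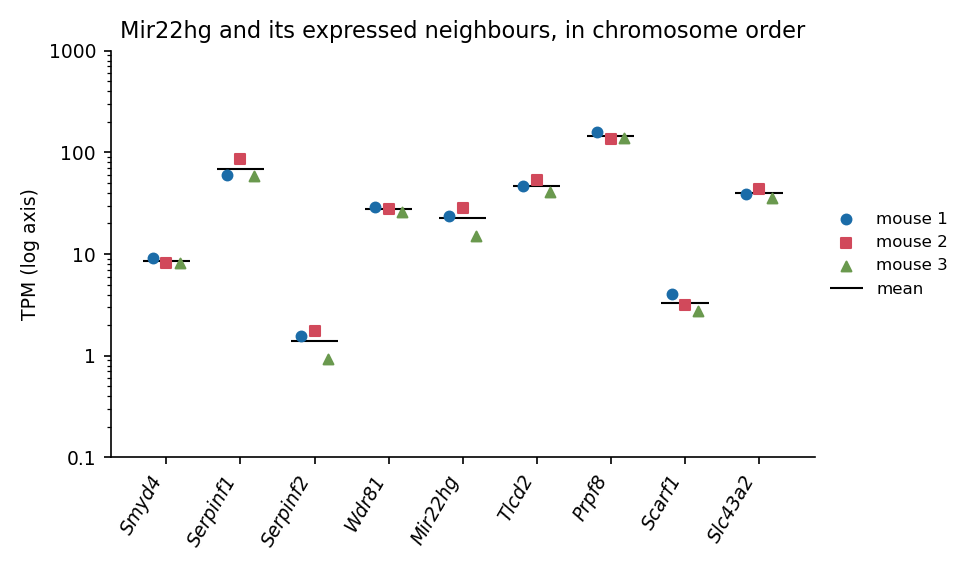
TPM on a log axis of Mir22hg and of the 8 other genes within 100 kb with a mean of at least 1 TPM, in chromosome order; points are mice and bars are means of 3 mice. As deposited, mouse 3 (green) is lowest for Mir22hg and for each of the others except Prpf8; after upper-quartile scaling, not plotted, it is lowest for Mir22hg and 4 of the 8.

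Rows of precursors were then looked for by annotation and by family. GENCODE M21 annotates 2202 genes as miRNA, and 0 of their symbols were among those analysed here. By annotated symbol, 0 of 1507 snoRNA genes, 0 of 1383 snRNA genes and 1 of 562 misc_RNA genes had a row, while 87.9% of 21951 protein-coding genes had a row. Preset lists named 106 symbols of blood and Hox-cluster microRNAs or their hosts, 95 of them annotated, and 1 of them, Mir22hg, had a row. The lists covered the miR-10 and miR-196 families, the miR-17 cluster and its paralogs, let-7, myeloid, stem cell and p53-linked microRNAs, and the miR-23-27-24 clusters. Of the miR-10 and miR-196 list, 0 of 5 had a row.

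Mir22hg was therefore set against other genes that hold a whole microRNA gene on their own strand. Such hosts contained 1133 of the annotated microRNA genes, and 771 hosts with a row contained 946 of them. A mean of at least 1 TPM was found for 621 of the 771, and Mir22hg ranked 374 by its mean. Most hosts code for proteins: 151 carry a microRNA in an annotated exon, with a median of 35.9 TPM, and 609 carry one in an intron, with a median of 20.1 TPM. Long noncoding hosts, classed by their gene type in GENCODE M21, numbered 21, of which 13 had a mean of at least 1 TPM. Zswim6, at 5.90 TPM, was counted among them by that type alone. Among these 21, Mir22hg ranked 3, behind F630028O10Rik and 2610307P16Rik, and among the 9 with a microRNA in an exon it ranked 2. Of the 13 expressed long noncoding hosts, 3 had a larger SD between mice than Mir22hg. Of all 15181 expressed symbols, 1904 had one at least as large.

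F630028O10Rik, whose exon holds Mir223 at chrX:96242817-96242926, was the most abundant long noncoding host. It stood at 71.7, 101 and 160 TPM in mice 1, 2 and 3, with a mean of 111 ± 44.9 TPM and an SD of 0.58 log2 units. Mouse 3 was its highest and mouse 1 its lowest, the order that the neutrophil markers S100a8, S100a9 and Ltf had. In Mir22hg mouse 3 was the lowest. 2610307P16Rik, which holds Mir6368 in an intron, was steadier, at 47.0, 50.7 and 41.3 TPM. Its order of mice was that of Mir22hg as deposited and after scaling, which 16.7% and 13.9% of expressed symbols had.

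The lists of blood and Hox-cluster microRNAs had 21 precursors inside a gene with a row, in 16 hosts. Of the 15 hosts other than Mir22hg, 11 had a mean of at least 1 TPM, from 18.7 TPM upward, and 10 were higher than Mir22hg. Of its neighbours in that order, Hoxa9 (26.1 TPM), Fancc (22.5 TPM) and 2010111I01Rik (18.7 TPM) lay within the SD of Mir22hg. Vmp1, an autophagy gene with Mir21a in an annotated exon, was the highest, at 324, 482 and 386 TPM. Huwe1, a ubiquitin ligase with Mir98 and Mirlet7f-2 in introns, stood at 331, 287 and 240 TPM. Smc4, a condensin subunit that holds Mir15b and Mir16-2, was steady at 239, 220 and 251 TPM.

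Mcm7, a subunit of the replicative helicase that holds Mir106b, Mir93 and Mir25, was at 203, 167 and 207 TPM. Egfl7, a secreted protein with Mir126a in an annotated exon, was at 42.4, 26.8 and 29.2 TPM. The order of mice of Mir22hg was found in 1 of the 11, the overlapping gene Tlcd2, both as deposited and after scaling, against 16.7% and 13.9% of all expressed symbols. A larger SD than that of Mir22hg was found for 1 of the 11, F630028O10Rik. Among all 15181 expressed symbols, 1904 had one at least as large.

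**Figure D4:**
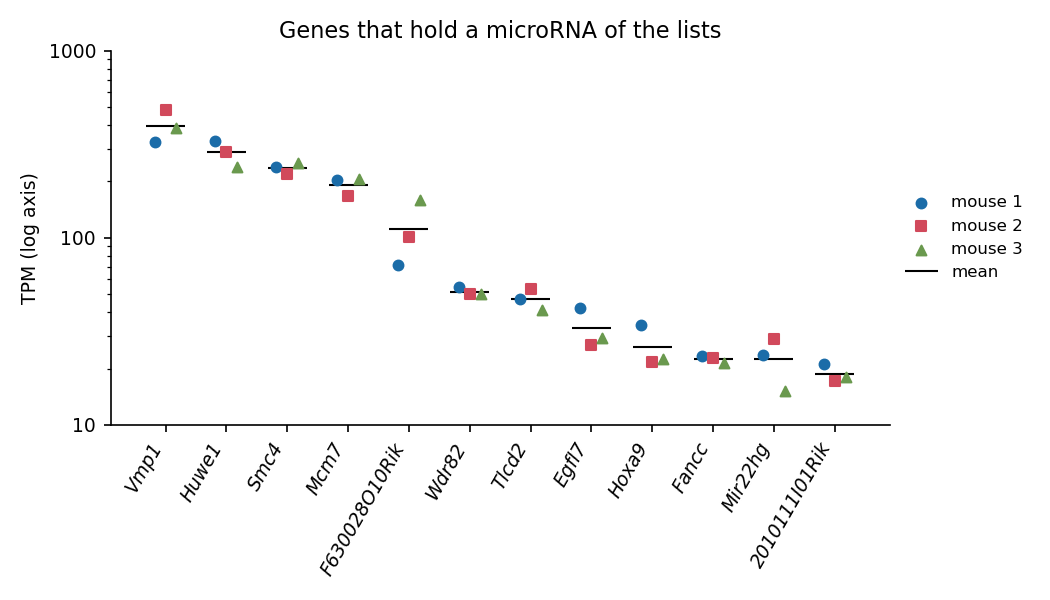
TPM on a log axis of the 12 genes with a mean of at least 1 TPM that hold a microRNA of the preset lists, ordered by mean; points are mice and bars are means of 3 mice. Mir22hg is among the lower hosts, and F630028O10Rik and Mir22hg have their mouse 3 values (green) at opposite ends.

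Of the miR-196 and miR-10 loci, Mir196b, Mir196a-2 and Mir10b could be viewed, and only through Hox genes that contain them. The other members of that list had no analysed host and could not be viewed. Mir196b, at chr6:52230081-52230165 on the minus strand, falls in an annotated exon of Hoxa9, a homeobox gene of blood progenitors. Hoxa9 stood at 34.2, 21.6 and 22.5 TPM in mice 1, 2 and 3, a mean of 26.1 ± 7.01 TPM (SD, n = 3), close to the mean of Mir22hg but with mouse 1 as the highest. Gene-level values do not show whether the deleted precursor was part of those transcripts. Hoxc5, which holds Mir196a-2 in an intron, was listed at 0 in mice 1 and 3 and at 0.025 TPM in mouse 2. Hoxd3, which holds Mir10b in an intron, was listed at 0 in all 3 mice.

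Genes for the proteins that make and use microRNAs were mostly listed at RNA levels around or above that of Mir22hg. Of 32 symbols on a preset list, which includes older names, 26 had a row and 25 a mean of at least 1 TPM, with a median of 35.0 TPM. Drosha, the nuclease that frees the hairpin, was the steadiest, at 34.7, 34.8 and 35.4 TPM. Its partner Dgcr8 stood at 89.0, 70.1 and 83.9 TPM, and the export factor Xpo5 at 47.8, 33.4 and 34.0 TPM. Dicer1, which trims the hairpin, stood at 29.0, 22.9 and 21.1 TPM.

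Among the Argonautes, which carry the mature strand, Ago2 was the highest by mean at 44.9 ± 3.94 TPM (SD, n = 3), followed by Ago1 at 26.9 ± 3.24, Ago4 at 18.1 ± 3.60 and Ago3 at 17.5 ± 2.95 TPM. Within each mouse Ago4 was slightly above Ago3, at 17.8, 21.9 and 14.7 TPM against 17.7, 20.4 and 14.5 TPM. These differences were smaller than the SD of either gene between mice, and they were not tested. The median SD of the 25 genes was 0.18 log2 units. Lin28a was the 1 of them with a larger SD than Mir22hg, against 1904 of 15181 expressed symbols at least as large. Lin28a, which blocks the maturation of let-7, was at 1.11, 1.66 and 5.08 TPM, highest in mouse 3, with a mean of 2.62 TPM that fell to 1.39 TPM without that mouse, and its paralog Lin28b stayed under 1 TPM at 0.207, 0.381 and 0.526 TPM. Of the 25, 3 had the order of mice of Mir22hg as deposited (Tarbp2, Ago3 and Ago4), against 16.7% of all expressed symbols.

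**Figure D5:**
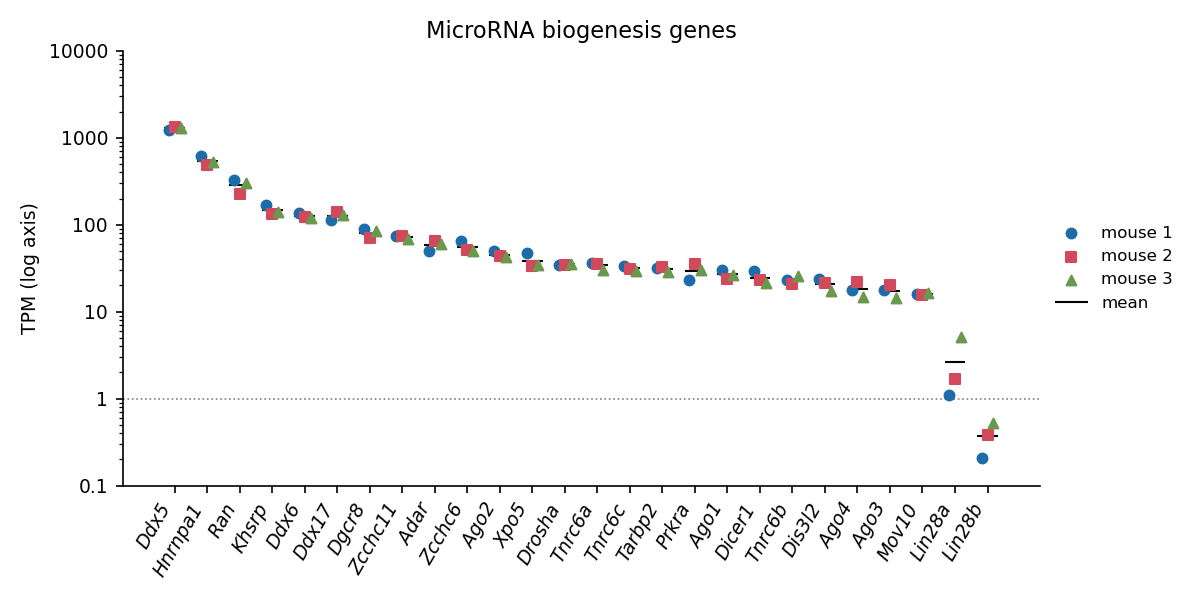
TPM on a log axis of the 26 listed microRNA biogenesis genes, ordered by mean; points are mice, bars are means of 3 mice and the dotted line is 1 TPM. The mice lie close together for most genes, and Lin28a and Lin28b are the lowest.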

How the data were processed

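Per the labels, RNA of 3 leukemias went into stranded, paired-end libraries of 150 nt. One protocol names ribosomal depletion and another an mRNA kit. The submitters' processing notes name kallisto and mm10, without a version. The authors deposited linear TPM values per symbol in a table named log2 FPKM. Its columns summed to 929731, 927169 and 928490, so they were read as TPM, whereas the design had named FPKM. TPM keeps no read number, so the depth is unknown and no counting interval is given. Of 28987 rows, 795 had no symbol and 27 a date in its place, and these were left out. Rows of 90 repeated symbols were summed. The 3 columns of samples from another series were not used.

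Levels were put on the log2(TPM + 1) scale, and means and SDs were taken over 3 mice. GENCODE M21 gave positions and matched 26255 symbols (93.5%). RefSeq GRCm38.p6 gave microRNA sequences. The SD and its percentile were tested on simulated data.

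The members and lists were chosen with earlier results of these data known, and the genes that hold microRNAs, the genes within 100 kb and the shared stretches of 31 bases were examined after seeing that 1 row matched. Named genes are the members, preset markers, genes that hold a listed microRNA, neighbours and biogenesis genes whose role is given. Python 3.11.15, numpy 2.4.6, pandas 2.3.3 and matplotlib 3.10.9 were used.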

Additional observations from a re-analysis of the deposited data

How the results depend on the processing

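No paired analysis was possible because all 3 mice belong to 1 group. With symbols ending in hg left out, the number of microRNA rows above 0 in all mice was 0, and so was the number with a mean of at least 1 TPM, because Mir22hg was the 1 member; the share of the column sum and the SD then had no value, nor had the share without the most abundant member. The SD of Mir22hg ranged from 0.192 (without mouse 3) to 0.616 (without mouse 1) when a mouse was left out. Other thresholds, the pseudocount of 0.1, upper-quartile scaling and leaving out repeated symbols moved none of the other values of Mir22hg by more than its spread, or its SD by more than 1.5 times. In alternatives added after seeing the data, upper-quartile scaling kept the means of 52 of 52 other named genes within their SD. Its log2 shifts were -0.085, 0.019 and 0.071 in mice 1, 2 and 3. These nearly cancel, so a mean over the 3 mice could hardly move and the count says little about robustness. Leaving out a mouse moved 3 means by over 1.5 times: without mouse 3, Lin28a went from 2.62 to 1.39 TPM and D030055H07Rik from 1.67 to 1.09 TPM, and without mouse 2 Hoxc5 was listed at 0. The depth is unknown, so the counting error of low values cannot be stated.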

Other observations

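Among expressed long noncoding hosts of microRNAs outside the preset lists, 2 had a larger SD between mice than Mir22hg. Of all 15181 symbols with a mean of at least 1 TPM, 1904 had one at least as large. The hosts named here were chosen after their values were seen. 1700016P03Rik, which holds Mir132 and Mir212 in introns, was at 0.696, 4.63 and 4.53 TPM in mice 1, 2 and 3, an SD of 0.99 log2 units. D030055H07Rik, which holds Mir135a-1 in an intron, was at 1.11, 1.06 and 2.85 TPM, highest in mouse 3, an SD of 0.51 log2 units. The hosts of the miR-200 family stayed under 1 TPM: Gm13648 (Mir200a, Mir200b and Mir429) had a mean of 0.113 ± 0.056 TPM and Gm15884 (Mir141 and Mir200c) one of 0.481 ± 0.15 TPM (SD, n = 3).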
